A study of Mus musculus with 316 samples.

Results

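Translation initiation and elongation factors are the proteins that load a ribosome onto an mRNA and then drive it along the message. The genes described here were all rows of a single-cell expression table of mouse cells whose symbol begins with Eif and a digit from 1 to 6, or with Eef1 or Eef2, leaving out pseudogene symbols. This gave 64 of 21970 mouse genes, of which 55 are initiation factor symbols (Eif) and 9 are elongation factor symbols (Eef). The lists go by symbol, so initiation or elongation factor here means a symbol of that list, not a role. The elongation list also holds Eef1e1, a scaffold protein, Eef2k, a kinase, and Eef2kmt, a methyltransferase. Eif5a and kinase genes such as Eif2ak2 stand in the initiation list by their symbols. Of the 64 genes, 61 had a mean of at least 1 TPM over the 4 group means and belonged to the 11593 background genes defined by that limit. Eef1a2, Eif4e1b and Eif4g1 did not. All 64 enter the counts given here.

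In initiation, eIF2 with bound GTP brings the initiator tRNA to the small ribosomal subunit, eIF1 and eIF1A keep that subunit open while it scans, and the many-subunit eIF3 holds the complex together. The cap-binding protein eIF4E, the scaffold eIF4G and the helicase eIF4A recruit the mRNA, and the 4E-binding proteins sequester eIF4E when mTOR signalling is low. The exchange factor eIF2B recharges eIF2 with GTP and is blocked when a stress kinase phosphorylates eIF2 alpha. In elongation, eEF1A delivers aminoacyl-tRNA, the eEF1B complex recharges eEF1A with GTP, and eEF2 moves the ribosome by a codon. Haematopoietic stem cells (HSC), the cells that rebuild the blood, are known for a low rate of protein synthesis.

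The 4 groups were Eng_ES-HSC (49 deposited cells, engrafted HSC derived from embryonic stem cells), Eng_BM-HSC (95 cells, engrafted HSC of bone marrow origin), FL_HSC (94 cells, HSC of the fetal liver) and ESC (78 cells, pluripotent embryonic stem cells). The labels give no strain, age, sort gate or transplantation details, and they name no animal or culture. Each group is therefore 1 sample, and each carried its own library identifier, so that group and library cannot be told apart. No test between groups is possible. The values below describe these cells, spreads are over cells, and they are no replicate error.

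Cells with fewer than 1000 genes at 1 TPM or more were left out, and 3 pairs of near-identical profiles were averaged, which left 21 cells of Eng_ES-HSC, 76 of Eng_BM-HSC, 87 of FL_HSC and 77 of ESC. TPM is a transcript abundance corrected for transcript length that keeps no read depth, so the depth per cell is unknown. Genes per cell had a median of 1609, 2585, 4233 and 5433 in that order of groups, and the mitochondrial share of TPM a median of 20%, 13.4%, 9.31% and 19.8%. Detection means 1 TPM or more, and 0 detections are given a limit of 3 cells of the group, which is a share of 14.3% in Eng_ES-HSC, 3.95% in Eng_BM-HSC, 3.45% in FL_HSC and 3.9% in ESC. The mitochondrial share exceeded 50% in 2 cells of Eng_ES-HSC, 10 of Eng_BM-HSC, 14 of FL_HSC and 24 of ESC. Checked against their labels, ESC carried a median summed TPM of 7993 over 5 pluripotency markers, of which Pou5f1 and Dppa5a were at 0 in the other groups. Of 7 HSC markers 4 were detected in Eng_ES-HSC, 7 in Eng_BM-HSC, 7 in FL_HSC and 4 in ESC, with summed medians of 0, 273, 535 and 10.6 TPM and ranges of 0 to 4508, 6.39 to 5121, 2.23 to 2029 and 0 to 248 TPM. Meis1, Mecom and Procr were at 0 in every cell of Eng_ES-HSC and ESC. Of 8 granulocyte markers 8 were detected in Eng_ES-HSC, 5 in Eng_BM-HSC, 1 in FL_HSC and 4 in ESC. Their summed level had a median of 834 TPM in Eng_ES-HSC (0 to 528684 TPM), 0 TPM in Eng_BM-HSC (0 to 2511 TPM), 1.41 TPM in FL_HSC (0 to 836 TPM) and 0 TPM in ESC (0 to 69.5 TPM). Of 4 T and NK cell markers, 4 were detected in Eng_ES-HSC, with a summed median of 115 TPM, against 3.17 TPM in Eng_BM-HSC and 0 TPM in both FL_HSC and ESC. Monocyte markers reached 17371 TPM and erythroid markers 37347 TPM in single Eng_ES-HSC cells. The name Eng_ES-HSC is thus used as the label of the group only.

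More factors were detected in the groups with more genes. A cell had a median of 15 of the 64 factors at 1 TPM or more in Eng_ES-HSC, 25 in Eng_BM-HSC, 42 in FL_HSC and 50 in ESC. The ranges were 5 to 37, 8 to 37, 14 to 57 and 22 to 57 factors, so that every cell of both engrafted groups lay below the medians of FL_HSC and ESC. Within a group, the number of factors followed the number of genes closely, with a Spearman rho over cells of 0.81 in Eng_ES-HSC, 0.85 in Eng_BM-HSC, 0.92 in FL_HSC and 0.91 in ESC. Both quantities come from the same profile, so these correlations are descriptions. For this reason the differences of both lists, and many of those of families and genes, are set beside values for cells of like gene number, paired 1 to 1 within 200 genes of each other and at most 50% mitochondrial. There were 13 such pairs of Eng_ES-HSC and Eng_BM-HSC, 11 of Eng_ES-HSC and FL_HSC, 15 of Eng_BM-HSC and FL_HSC, and 22 of FL_HSC and ESC. Eng_ES-HSC gave 1 such pair with ESC and Eng_BM-HSC gave 0, because no ESC with at most 50% mitochondrial transcripts had fewer than 3842 genes. Pairs of the engrafted groups with ESC thus exist only when ESC above 50% are let in, which gives 10 pairs for Eng_ES-HSC and 12 for Eng_BM-HSC.

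**Figure D1:**
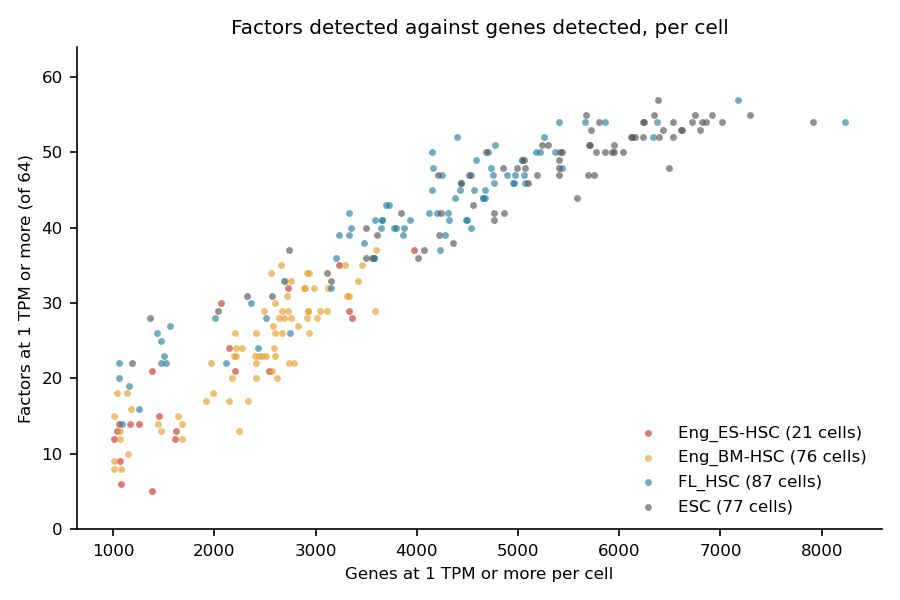
Each point is 1 kept cell, with its genes at 1 TPM or more on the horizontal axis and the number of the 64 factors at 1 TPM or more on the vertical axis. The factors detected climb with the genes detected in all 4 groups, and the median is 15 factors in Eng_ES-HSC and 50 in ESC.

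Summed over the 55 initiation symbols, a cell had a median of 3170 TPM in Eng_ES-HSC, 5882 TPM in Eng_BM-HSC, 8042 TPM in FL_HSC and 8592 TPM in ESC. The lowest and highest cells were 39 and 10955 TPM in Eng_ES-HSC, 40.3 and 18346 TPM in Eng_BM-HSC, 51.7 and 15622 TPM in FL_HSC, and 362 and 15395 TPM in ESC. All 4 groups overlapped. At like gene number the median initiation sum was 3211 TPM in Eng_ES-HSC and 7154 TPM in Eng_BM-HSC, and 4035 TPM in Eng_ES-HSC and 6527 TPM in FL_HSC. It was higher in Eng_BM-HSC (7714 TPM) than in FL_HSC (6737 TPM), and higher in FL_HSC (9142 TPM) than in ESC (8719 TPM), so both of these turned round. Summed over the 9 elongation symbols, the medians were 2286, 4758, 8928 and 4763 TPM in the same order, so over all kept cells FL_HSC was highest and ESC lay beside Eng_BM-HSC. At like gene number the elongation sum was 2286 TPM in Eng_ES-HSC against 6403 TPM in Eng_BM-HSC, and 2286 TPM in Eng_ES-HSC against 6672 TPM in FL_HSC. It was 7058 TPM in Eng_BM-HSC against 6792 TPM in FL_HSC, so FL_HSC was not higher there, and 11279 TPM in FL_HSC against 5015 TPM in ESC. The ratio of the elongation sum to the initiation sum, taken within each cell, does not depend on the share of other transcripts. Its median was 0.79 in Eng_ES-HSC, 0.731 in Eng_BM-HSC, 0.981 in FL_HSC and 0.524 in ESC. Between the engrafted groups it turned round in the 13 pairs, with 0.422 in Eng_ES-HSC and 0.828 in Eng_BM-HSC. Against FL_HSC the pairs gave 0.79 in Eng_ES-HSC and 0.923 in FL_HSC, and 0.839 in Eng_BM-HSC and 0.95 in FL_HSC. In the 22 pairs of FL_HSC and ESC it was 0.887 (0.617 to 1.56) in FL_HSC, against 0.557 (0.321 to 1.14) in ESC. The engrafted cells were widely scattered, from 0.00509 to 50.1 in Eng_ES-HSC and from 0.0268 to 218 in Eng_BM-HSC.

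**Figure D2:**
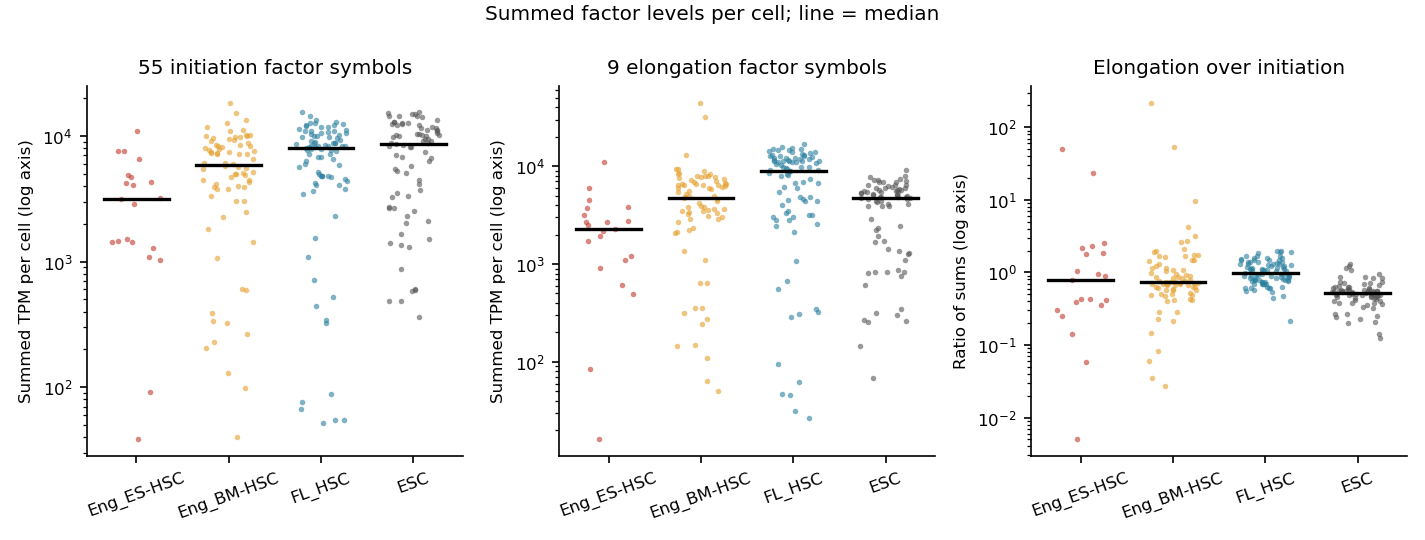
Each point is 1 kept cell and each line a group median, on log axes: summed TPM of the initiation symbols, summed TPM of the elongation symbols, and their ratio. Over all kept cells the elongation sum is highest in FL_HSC, with a median of 8928 TPM, and the ratio is lowest in ESC, with a median of 0.524.

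Differences between groups are given as the difference of mean log2(TPM + 1) over cells, and a factor was counted as higher or lower past 1 log2 unit. This scale understates the change of low genes. Between Eng_ES-HSC and Eng_BM-HSC the initiation factors had a median difference of -0.36 and the elongation factors of -1.03, beside -0.14 over the 11593 background genes. Of the 55 initiation factors 11 were lower in Eng_ES-HSC and 0 higher, and of the 9 elongation factors 5 were lower and 0 higher, where 9.76% of background genes were lower and 2.54% higher. Those 5 include Eef1e1 and Eef2kmt, both at -1.03, which belong to the elongation list by symbol only. In the 13 pairs of like gene number the medians were -0.07 and -1.39, beside 0.00 over background genes. There 10 initiation and 5 elongation factors were lower, and 4 and 1 were higher, where 10.7% of background genes were lower and 8.51% higher. The initiation median thus lay within 0.1 of the background median in these pairs, and the elongation median lay below both.

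Against FL_HSC, the Eng_ES-HSC medians were -2.49 for initiation and -2.85 for elongation factors, beside -0.70 over background genes. In Eng_ES-HSC 43 initiation and 6 elongation factors were lower and 0 of either were higher, where 39.9% of background genes were lower and 2.58% higher. In the 11 pairs of like gene number the medians were -0.97 and -1.70, with 27 and 6 factors lower and 5 and 1 higher, where 22.1% of background genes were lower and 9.57% higher. For Eng_BM-HSC minus FL_HSC the medians were -2.06 and -0.87, beside -0.53, with 42 initiation and 4 elongation factors lower, where 33.2% of background genes were lower and 2.1% higher. In the 15 pairs they were -0.62 and 0.07, with 20 and 1 factors lower and 2 and 1 higher, where 16.4% of background genes were lower and 8.65% higher. At like gene number, the initiation factors of Eng_BM-HSC were below those of FL_HSC in 20 of 55 cases, a larger share than in the background, and the elongation factors in 1 of 9.

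Against ESC, the differences of the engrafted groups depended on the choice of cells. Over all kept cells, whose gene numbers differ, Eng_ES-HSC minus ESC had medians of -3.08 for initiation and -2.67 for elongation factors, beside -0.89, with 45 and 6 factors lower, where 46.7% of background genes were lower and 2.54% higher. Eng_BM-HSC minus ESC had medians of -2.43 and -1.75, beside -0.71, with 42 and 6 factors lower, where 40.6% of background genes were lower and 3.67% higher. In the pairs of any mitochondrial share, the initiation medians were 0.20 for Eng_ES-HSC minus ESC and 0.22 for Eng_BM-HSC minus ESC. The background medians of those pairs were 0.03 and 0.07. In Eng_ES-HSC 7 initiation factors were lower and 15 higher, and in Eng_BM-HSC 6 were lower and 14 higher. Background shares are not given for these pairs, so these counts alone do not set the factors apart from other genes. The elongation medians were 0.00 and 0.89 there, so no list median was negative. Such pairs exist only with ESC of high mitochondrial share let in. They do not decide whether the factors are lower than in other ESC. Gene and family differences of the engrafted groups from ESC given below are over all kept cells. FL_HSC minus ESC had medians of -0.39 and -0.02, beside -0.12. There 11 initiation factors were lower in FL_HSC and 4 higher, and 2 elongation factors were lower and 2 higher. Of background genes, 20.1% were lower and 12.2% higher. The elongation median thus holds differences in both directions, from -1.84 to 1.43. The median elongation sum was higher in FL_HSC, at 8928 TPM against 4763 TPM in ESC. In the 22 pairs the medians were 0.47 and 0.29, beside 0.21, with 5 initiation factors lower and 15 higher and 0 elongation factors lower and 2 higher, where 14.7% of background genes were lower and 26.5% higher.

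**Figure D3:**
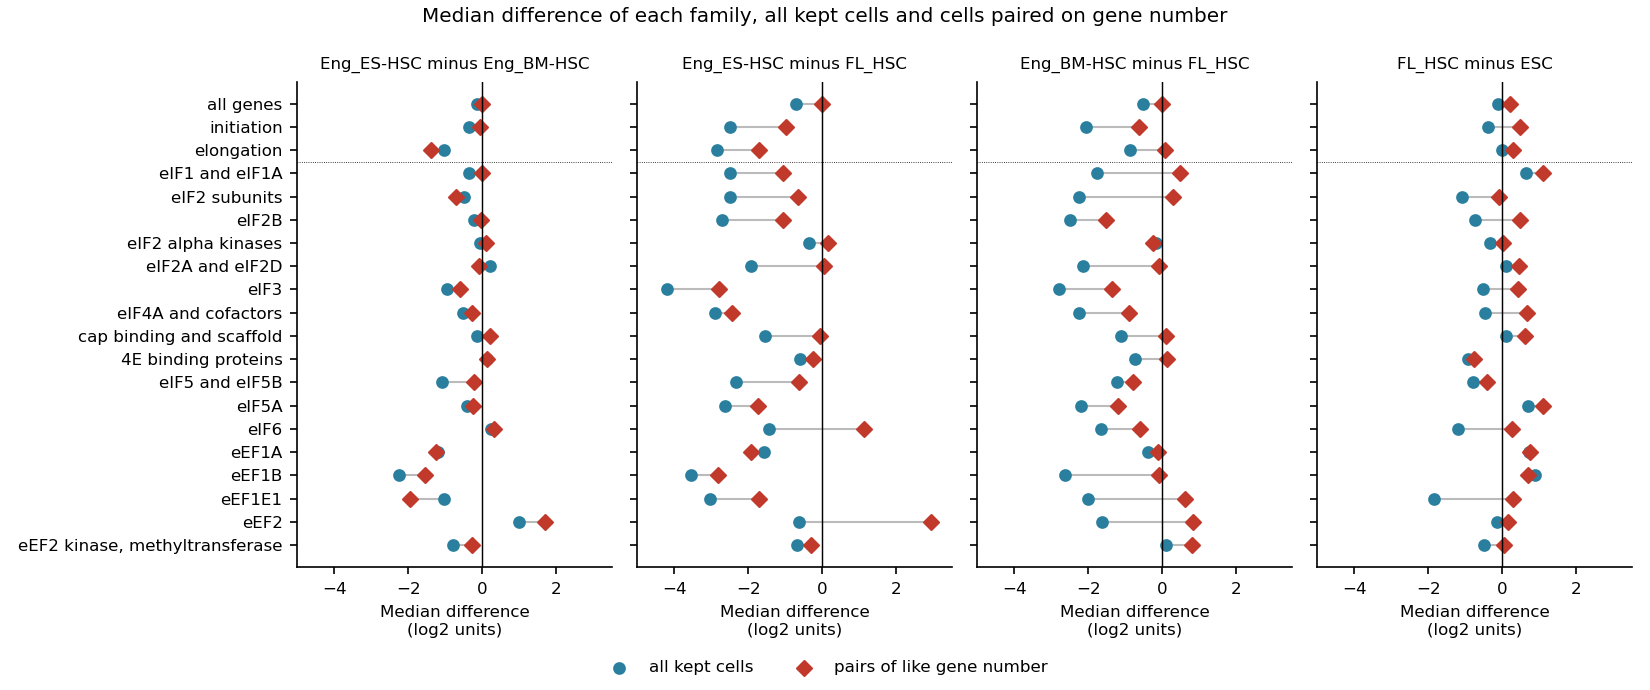
For 4 comparisons, each row gives the median difference in mean log2(TPM + 1) of a family, of both lists, or of all background genes, over all kept cells (circles) and over pairs of cells of like gene number (diamonds). Against FL_HSC most values lie closer to 0 when cells are paired, eIF3 included, at -2.80 in Eng_ES-HSC and -1.36 in Eng_BM-HSC.

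Among the elongation factors, Eef1a1 and Eef1g were lower in Eng_ES-HSC than in the other groups over all kept cells, and Eef2 was not lower than in Eng_BM-HSC. Eef1a1, the main eEF1A gene (chromosome 9, 78478449 to 78489151, GRCm38), had the highest mean log2 level of the 64 factors in every group. It had a lowest, median and highest level of 0, 1226 and 3671 TPM in Eng_ES-HSC, 14.3, 2803 and 31797 TPM in Eng_BM-HSC, 16.3, 6935 and 14030 TPM in FL_HSC, and 30.2, 2073 and 5056 TPM in ESC. Its mean was 1390 ± 1227 TPM in Eng_ES-HSC (SD over 21 cells), 3384 ± 3912 TPM in Eng_BM-HSC (76 cells), 5966 ± 3928 TPM in FL_HSC (87 cells) and 1836 ± 1187 TPM in ESC (77 cells). The FL_HSC median stood highest and that of Eng_ES-HSC lowest, and the cells of all groups overlapped. The difference in pairs of like gene number was -2.42 for Eng_ES-HSC minus Eng_BM-HSC, -3.83 for Eng_ES-HSC minus FL_HSC, -0.32 for Eng_BM-HSC minus FL_HSC and 1.48 for FL_HSC minus ESC. Its paralogue Eef1a2, known from muscle and neurons, was at 1 TPM or more in 0 of 21 Eng_ES-HSC, 5 of 76 Eng_BM-HSC, 0 of 87 FL_HSC and 1 of 77 ESC cells. Eef1a1 has many processed pseudogenes, and how reads shared with them were counted was not found in the labels.

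Eef1g, the gamma subunit of eEF1B (chromosome 19, 8967041 to 8978479), had the largest difference of the 64 factors between Eng_ES-HSC and each other group over all kept cells. Without the 10 Eng_ES-HSC cells above 1000 TPM of granulocyte markers, Eif3k (-2.70) exceeded Eef1g (-2.36) against Eng_BM-HSC, and Eif4ebp1 (-6.39) and Eif3c (-5.71) exceeded it (-5.61) against ESC. It was detected in 2 of 21 Eng_ES-HSC cells (9.52%, exact 95% interval 1.17% to 30.4%), in 57.9% of Eng_BM-HSC (46% to 69.1%), in 98.9% of FL_HSC (93.8% to 100%) and in 90.9% of ESC (82.2% to 96.3%). These intervals cover the counting of cells only. Its medians were 0 TPM in Eng_ES-HSC, 10.1 TPM in Eng_BM-HSC, 774 TPM in FL_HSC and 885 TPM in ESC, and 1 Eng_ES-HSC cell reached 5423 TPM. The difference was -3.32 for Eng_ES-HSC minus Eng_BM-HSC, -7.63 for Eng_ES-HSC minus FL_HSC and -6.58 for Eng_ES-HSC minus ESC. At like gene number it was detected in 0 of 13 Eng_ES-HSC cells, for which 3 cells would be 23.1%, against 46.2% of their Eng_BM-HSC partners. Against FL_HSC the pairs gave 9.09% of Eng_ES-HSC and 100% of FL_HSC cells.

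The other eEF1B subunits differed less. Eef1b2, the catalytic exchange subunit, had medians of 76.6 TPM in Eng_ES-HSC, 529 TPM in Eng_BM-HSC, 614 TPM in FL_HSC and 918 TPM in ESC. Eef1b2 was at 1 TPM or more together with Eef1g in 2 Eng_ES-HSC cells and alone in 12, while in FL_HSC both were present in 83 of 87 cells. Eef1d, another exchange subunit, was detected in 14.3% of Eng_ES-HSC, 32.9% of Eng_BM-HSC, 75.9% of FL_HSC and 72.7% of ESC. All 3 subunits were lower in Eng_ES-HSC than in Eng_BM-HSC in the pairs, by -1.56 for Eef1b2, -1.39 for Eef1d and -3.16 for Eef1g.

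Eef2, the translocase (chromosome 10, 81176631 to 81182498), ran the other way between the engrafted groups. Its lowest, median and highest levels were 0.903, 141 and 2528 TPM in Eng_ES-HSC, 0, 47.4 and 2410 TPM in Eng_BM-HSC, 0, 197 and 1108 TPM in FL_HSC, and 1.52, 190 and 1133 TPM in ESC. The groups overlapped almost fully, and Eef2 was detected in 95.2%, 90.8%, 97.7% and 100% of cells in that order. The difference of Eng_ES-HSC minus Eng_BM-HSC was 0.98 over all kept cells and 1.69 in the 13 pairs. For Eng_ES-HSC minus FL_HSC it was -0.64 over all kept cells, 2.93 in the 11 pairs and 0.61 after quantile normalization. Without the Eng_ES-HSC cells above 1000 TPM of granulocyte markers it was 0.32. Its direction thus depends on the choice of cells and the scaling. Eef2k, the kinase that inactivates eEF2, was detected in 19%, 30.3%, 21.8% and 14.3% of cells, and the methyltransferase gene Eef2kmt in 4.76%, 21.1%, 31% and 58.4%. Eef1e1, a scaffold protein of the multisynthetase complex, was detected in 14.3%, 31.6%, 63.2% and 89.6% of cells. Its mean of 628 TPM in Eng_BM-HSC came largely from 1 cell at 43453 TPM.

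Both lists had lower median sums in Eng_ES-HSC cells above 1000 TPM of granulocyte markers, a split added after seeing the data. Of the 21 Eng_ES-HSC cells 10 had over 1000 TPM of the 8 markers, with a median elongation sum of 1579 TPM, against 2688 TPM in the other 11. The median initiation sum was 2157 TPM in those 10 cells and 4035 TPM in the other 11. A median of 14 and 21 of the factors were detected, respectively. Without those 10 cells Eef1a1 differed from Eng_BM-HSC by -1.40 in place of -2.29, Eef1b2 by -0.83 in place of -2.25, Eef1g by -2.36 in place of -3.32 and Eef2 by 1.94 in place of 0.98. The count of elongation factors lower than in Eng_BM-HSC was then 3 of 9, and 1 was higher. The initiation factors gave 13 lower and 2 higher of 55 without them. The background median was -0.15 there. Background shares past 1 unit are not given for this choice of cells, so its counts cannot be set beside them. Over the 21 cells the rank correlation of the summed granulocyte markers was -0.06 with the initiation sum and -0.17 with the elongation sum, while it was 0.23 and 0.34 for the HSC markers and -0.02 and 0.27 for the T and NK cell markers. These are descriptions within 1 library, and the part of other cell types in the differences was not tested. Nor was the part of the markers' own share of TPM, whose sum reached 528684 TPM in Eng_ES-HSC.

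**Figure D4:**
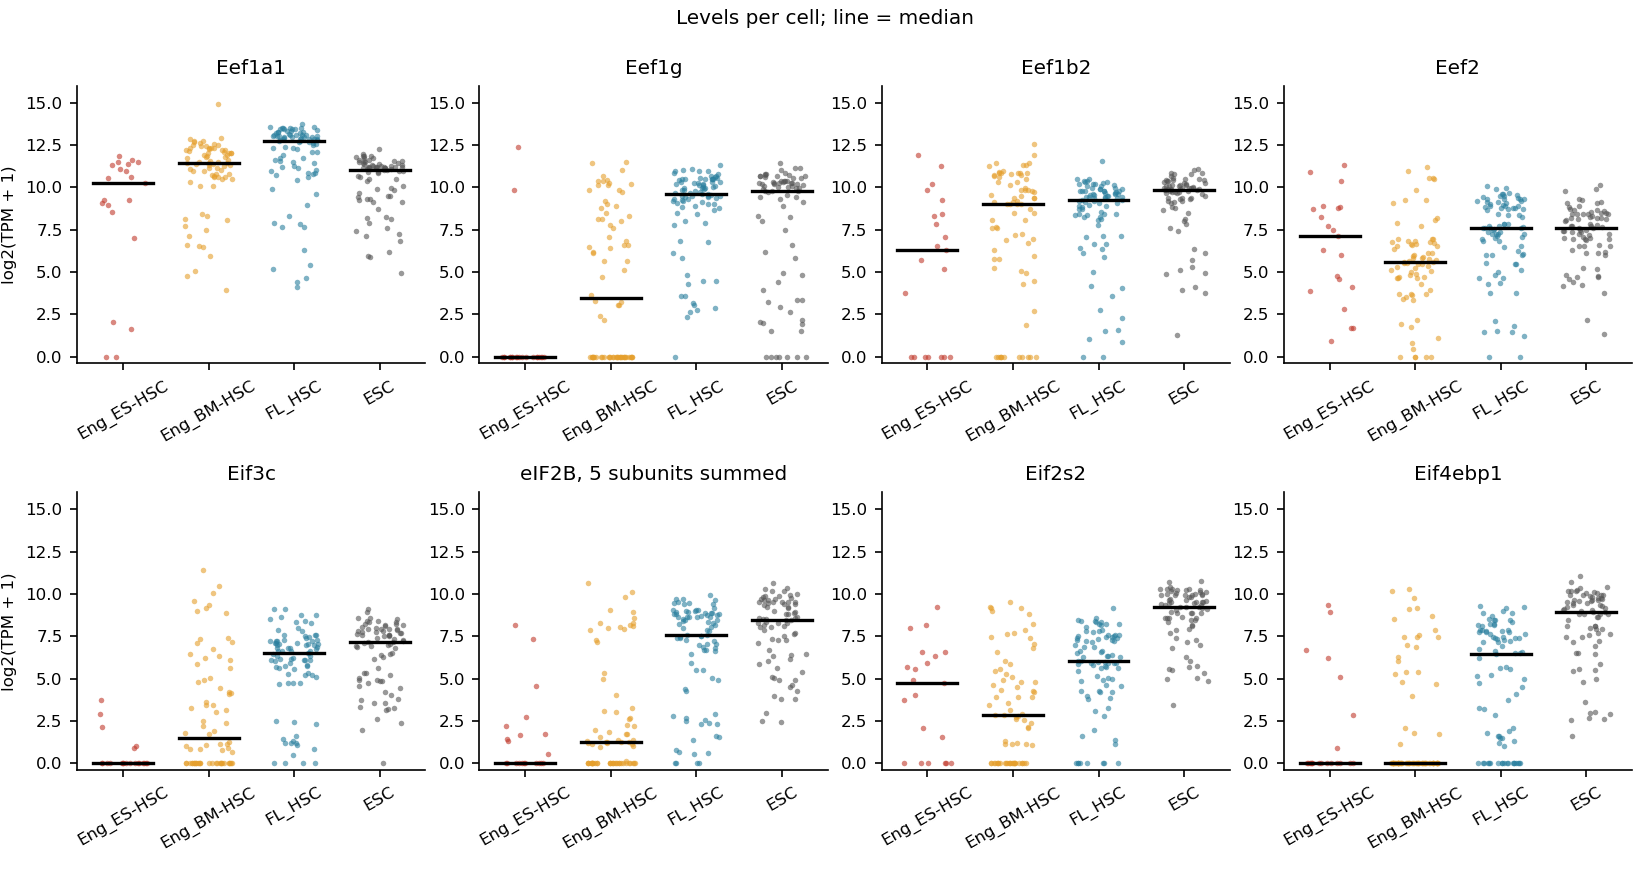
Each point is 1 kept cell and each line a group median, in log2(TPM + 1), for 7 factors and for the sum of the 5 eIF2B subunits. Eef1g is at 0 in most Eng_ES-HSC cells and near 10 in most FL_HSC and ESC cells, Eef2 overlaps in all groups, and Eif2s2 and Eif4ebp1 are highest in ESC.

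Promoters of RefSeq (GRCm38.p6) are shown for Eef1a1, Eef1b2 and Eef2, which differed between Eng_ES-HSC and Eng_BM-HSC by -2.29, -2.25 and 0.98 over all kept cells. The lines show 90 bases before the start site and 30 from it on, for Eef1a1 (chr9:78481695-78481814, minus strand), Eef1b2 (chr1:63176741-63176860, plus strand) and Eef2 (chr10:81176541-81176660, plus strand). Capitals mark CCGGAAGT, an ETS-type motif, in Eef1b2, and TATAAA, a form of the TATA box, in Eef2. Neither exact run of letters is in the window of Eef1a1. That window ends in the similar run tatataa, which an exact search for TATAAA does not count.
Eef1a1: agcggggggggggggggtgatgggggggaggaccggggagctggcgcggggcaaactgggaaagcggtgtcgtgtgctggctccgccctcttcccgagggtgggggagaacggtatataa
Eef1b2: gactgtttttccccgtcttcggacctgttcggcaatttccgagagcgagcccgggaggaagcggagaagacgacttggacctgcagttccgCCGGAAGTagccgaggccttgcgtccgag
Eef2: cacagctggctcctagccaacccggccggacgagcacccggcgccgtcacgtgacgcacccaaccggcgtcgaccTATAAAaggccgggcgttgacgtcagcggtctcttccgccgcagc
Both motifs were searched on both strands of the 300 bases held per gene, and no printed sequence holds both. Among the 64 factors 50 had a promoter in the table. CCGGAAGT occurred in 1 of 7 elongation and 8 of 43 initiation genes (18.6%), and in 9.31% of the 8708 background genes with a promoter. TATAAA occurred in 1 of 7 elongation and 4 of 43 initiation genes (9.3%), and in 8.73% of background genes.

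In the initiation list, the eIF2B subunits were low in both engrafted groups. The summed level of Eif2b1 to Eif2b5 had a median of 0 TPM in Eng_ES-HSC (0 to 281 TPM), 1.33 TPM in Eng_BM-HSC (0 to 1632 TPM), 190 TPM in FL_HSC (0 to 997 TPM) and 353 TPM in ESC (4.44 to 1589 TPM). A cell had a median of 0, 1, 3 and 4 of the 5 subunits at 1 TPM or more in that order, and no engrafted cell had more than 2. Eif2b2, a regulatory subunit, was detected in 0 of 21 Eng_ES-HSC cells, 1.32% of Eng_BM-HSC, 43.7% of FL_HSC and 41.6% of ESC. Over all kept cells, all 5 subunits were lower in each engrafted group than in FL_HSC and than in ESC. Of background genes, 39.9% in Eng_ES-HSC and 33.2% in Eng_BM-HSC were lower than in FL_HSC. Against ESC these shares were 46.7% and 40.6%. In pairs of like gene number the family median was -1.07 for Eng_ES-HSC minus FL_HSC, with 3 of 5 lower beside 22.1% of background genes, and -1.52 for Eng_BM-HSC minus FL_HSC, with 4 of 5 lower beside 16.4%. The background medians of those pairs were -0.00 and -0.02. Between the engrafted groups it was -0.03, and 0 of 5 subunits differed by 1 unit.

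Eif2b5, the catalytic subunit of eIF2B (chromosome 16, 20498817 to 20509323), set ESC apart from FL_HSC. It had medians of 0 TPM in Eng_ES-HSC, Eng_BM-HSC and FL_HSC and 133 TPM in ESC. It was detected in 43.7% of FL_HSC (33.1% to 54.7%), against 97.4% of ESC (90.9% to 99.7%). FL_HSC minus ESC was -4.15 over all kept cells and -2.90 in the 22 pairs. In those pairs Eif2b4 was at -0.09, Eif2b2 at 0.47 and Eif2b3 at 0.70, so Eif2b5 stood apart from them.

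Promoter sequences of RefSeq (GRCm38.p6) are shown for the 4 eIF2B subunits in the table, since these genes were low together in the engrafted cells while Eif2b5 stood apart in ESC. They are Eif2b1 (chr5:124579102-124579221, minus strand), Eif2b2 (chr12:85219391-85219510, plus strand), Eif2b4 (chr5:31193110-31193229, minus strand) and Eif2b5 (chr16:20498727-20498846, plus strand). Capitals again mark CCGGAAGT.
Eif2b1: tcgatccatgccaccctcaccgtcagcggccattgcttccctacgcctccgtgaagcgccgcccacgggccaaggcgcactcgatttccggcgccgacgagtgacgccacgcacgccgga
Eif2b2: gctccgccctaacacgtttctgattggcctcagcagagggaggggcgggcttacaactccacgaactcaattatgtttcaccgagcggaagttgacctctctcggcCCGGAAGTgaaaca
Eif2b4: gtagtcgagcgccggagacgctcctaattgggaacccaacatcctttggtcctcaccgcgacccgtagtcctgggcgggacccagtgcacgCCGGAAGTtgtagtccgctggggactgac
Eif2b5: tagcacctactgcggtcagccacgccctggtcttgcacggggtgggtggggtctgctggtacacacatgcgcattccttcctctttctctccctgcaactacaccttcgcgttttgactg
CCGGAAGT was found in Eif2b2 and Eif2b4, which is 2 of 4, and these letters are not in the windows of Eif2b1 and Eif2b5. TATAAA is in none of the 4 windows.

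Eif2s2, the beta subunit of eIF2 (chromosome 2, 154871410 to 154892935), was likewise highest in ESC. Its lowest, median and highest levels were 0, 25.9 and 612 TPM in Eng_ES-HSC, 0, 6.06 and 749 TPM in Eng_BM-HSC, 0, 64.4 and 581 TPM in FL_HSC, and 9.68, 601 and 1732 TPM in ESC. The ESC median exceeded the highest FL_HSC cell, although the ranges overlapped. FL_HSC minus ESC was -3.09 over all kept cells and -2.92 in the pairs. Eif2s1, the alpha subunit that stress kinases phosphorylate, was detected in 19% of Eng_ES-HSC, 51.3% of Eng_BM-HSC, 81.6% of FL_HSC and 90.9% of ESC, and differed by -2.93 in the Eng_ES-HSC and Eng_BM-HSC pairs. Over the 4 eIF2 subunit symbols, the median difference of Eng_BM-HSC minus FL_HSC was -2.25 over all kept cells and 0.28 at like gene number. That of Eng_ES-HSC minus FL_HSC was -2.48 and -0.67.

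The gamma subunit of eIF2 is encoded by Eif2s3x on the X and Eif2s3y on the Y chromosome. Eif2s3x was detected in 33.3% of Eng_ES-HSC, 53.9% of Eng_BM-HSC, 85.1% of FL_HSC and 96.1% of ESC. Eif2s3y was detected in 1 of 21 Eng_ES-HSC, 0 of 76 Eng_BM-HSC, 16 of 87 FL_HSC and 42 of 77 ESC cells. For the 0 of 76, the exact 95% interval reaches 4.74%. Both copies were present together in 13 FL_HSC and 41 ESC cells. Their transcripts are alike, and how reads that fit both were divided was not found in the labels either. The start regions are shown because the copies are told apart by sequence alone, for Eif2s3x (chrX:94212622-94212741, minus strand) and Eif2s3y (chrY:1010505-1010624, plus strand), with the longest run they share, of 12 bases, in capitals.
Eif2s3x: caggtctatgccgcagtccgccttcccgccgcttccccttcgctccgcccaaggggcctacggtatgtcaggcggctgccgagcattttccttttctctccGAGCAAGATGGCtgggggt
Eif2s3y: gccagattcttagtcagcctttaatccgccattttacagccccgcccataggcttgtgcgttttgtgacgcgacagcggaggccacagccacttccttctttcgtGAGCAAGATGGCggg

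The eIF2 alpha kinases were low throughout. Eif2ak2, the kinase activated by double-stranded RNA, had medians of 1.01 TPM in Eng_ES-HSC, 1.39 TPM in Eng_BM-HSC, 0.348 TPM in FL_HSC and 2.3 TPM in ESC. It was the only kinase detected in over 40% of cells of each group. Eif2ak1, the haem-regulated kinase of the red cell lineage, was detected in 14.3% of Eng_ES-HSC, 3.95% of Eng_BM-HSC, 44.8% of FL_HSC and 59.7% of ESC. Eif2ak3, the kinase of the endoplasmic reticulum, was detected in 9.52%, 2.63%, 5.75% and 23.4%, and Eif2ak4, the kinase of amino acid shortage, in 0%, 11.8%, 19.5% and 33.8%. Their family median lay between -0.67 and -0.06 in all 6 comparisons of kept cells, and was 0.07 in place of -0.06 for Eng_ES-HSC minus Eng_BM-HSC after quantile normalization. In the pairs it was 0.09 for Eng_ES-HSC minus Eng_BM-HSC, 0.16 for Eng_ES-HSC minus FL_HSC, -0.26 for Eng_BM-HSC minus FL_HSC and 0.02 for FL_HSC minus ESC. Single kinases differed by more, such as Eif2ak1 by -2.24 for Eng_BM-HSC minus ESC over all kept cells and Eif2ak2 by 2.31 for Eng_ES-HSC minus FL_HSC in the pairs. Eif2a and Eif2d, which take part in non-canonical initiation, were detected in at most 14.3% of the cells of either engrafted group and in 41.4% to 58.4% of FL_HSC and ESC. At like gene number their median difference from FL_HSC was 0.05 in Eng_ES-HSC, against -1.93 over all kept cells, and -0.09 in Eng_BM-HSC, against -2.13, with 0 of 2 lower in either.

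**Figure D5:**
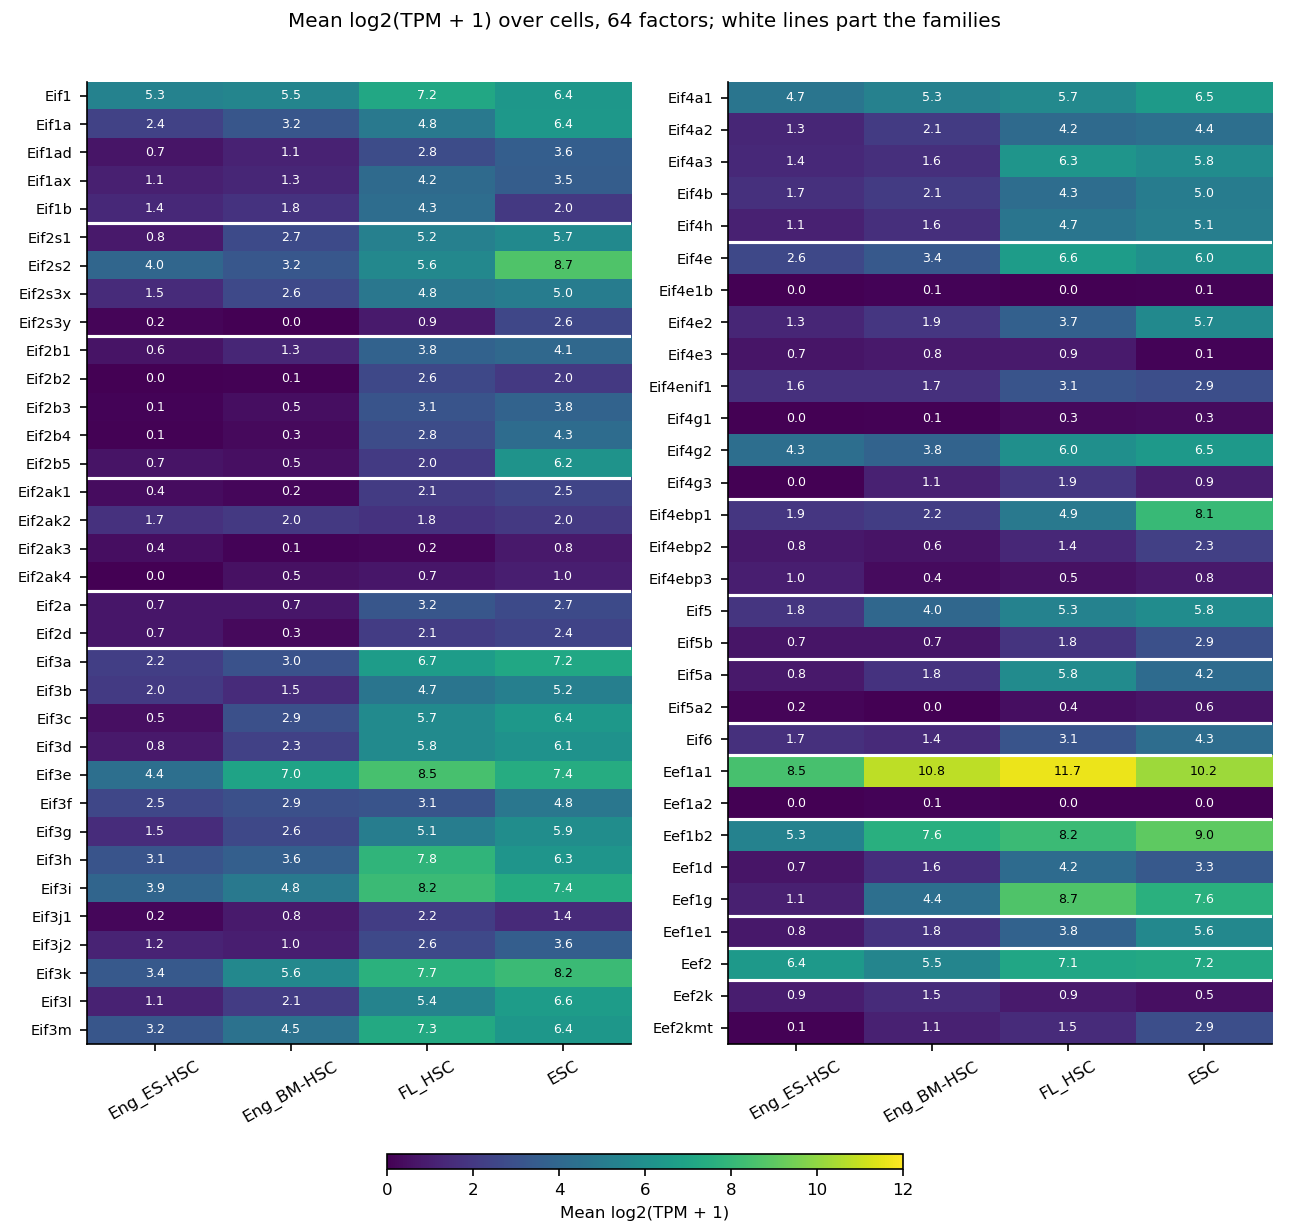
Each row is 1 of the 64 factors and each column a group, coloured and numbered by the mean log2(TPM + 1) over kept cells, and white lines part the families. Eef1a1 is the highest factor in every group, and most rows are lower in the engrafted groups than in FL_HSC and ESC.

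Most eIF3 subunits had lower mean log2 levels in both engrafted groups than in FL_HSC, over all kept cells and at like gene number. The summed level of Eng_BM-HSC was lower over all kept cells but close to that of FL_HSC at like gene number. The summed level had a median of 1109 TPM in Eng_ES-HSC, 3134 TPM in Eng_BM-HSC, 4082 TPM in FL_HSC and 3835 TPM in ESC, and a cell held a median of 5, 7, 12 and 13 of the 14 symbols. At like gene number the sum was 1476 TPM in Eng_ES-HSC against 4492 TPM in FL_HSC, and 3709 TPM in Eng_BM-HSC against 3794 TPM in FL_HSC. In cells with 1000 to 3000 genes it was 2999 TPM in Eng_BM-HSC against 963 TPM in FL_HSC, whose cells had a median of 71% mitochondrial transcripts there. Against FL_HSC 13 of 14 symbols were lower in each engrafted group, where the background share was 39.9% in Eng_ES-HSC and 33.2% in Eng_BM-HSC. In the pairs 11 of 14 were lower in Eng_ES-HSC (background 22.1%), with a median of -2.80, and 10 of 14 in Eng_BM-HSC (background 16.4%), with a median of -1.36. Between the engrafted groups 7 of 14 were lower in Eng_ES-HSC over all kept cells and 5 of 14 in the pairs, where 1, Eif3h, was higher (1.19).

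Within eIF3 the subunits differed in level. Eif3e had the highest mean over the 4 groups, with medians of 12.8 TPM in Eng_ES-HSC, 157 TPM in Eng_BM-HSC, 589 TPM in FL_HSC and 374 TPM in ESC, and it differed by -2.61 between Eng_ES-HSC and Eng_BM-HSC, or -1.19 in the pairs. Eif3c, a core subunit (chromosome 7, 126546455 to 126566411), was detected in 19% of Eng_ES-HSC (5.45% to 41.9%), 56.6% of Eng_BM-HSC (44.7% to 67.9%), 93.1% of FL_HSC and 98.7% of ESC. No Eng_ES-HSC cell exceeded 12.1 TPM of Eif3c, while the highest Eng_BM-HSC cell had 2714 TPM. Eif3d, the subunit that can bind the cap, had a highest cell of 71.2 TPM in Eng_ES-HSC and medians of 118 TPM in FL_HSC and 152 TPM in ESC. Eif3l, of the outer module, differed by -4.49 between Eng_BM-HSC and ESC, and Eif3h by -4.20 between Eng_BM-HSC and FL_HSC, or -2.95 in the pairs. Eif3f was the member that differed least from FL_HSC, by -0.56 in Eng_ES-HSC and -0.16 in Eng_BM-HSC. Eif3j1 and Eif3j2, near-identical copies whose split is uncertain, were detected in 9.52% and 38.1% of Eng_ES-HSC, 21.1% and 25% of Eng_BM-HSC, 51.7% and 54% of FL_HSC, and 42.9% and 83.1% of ESC.

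Among the scanning factors, Eif1, which guards start codon choice, had the highest mean and differed by -0.12 between Eng_ES-HSC and Eng_BM-HSC over all kept cells and by 1.79 in the pairs. Its medians were 54 TPM in Eng_ES-HSC, 67.1 TPM in Eng_BM-HSC, 324 TPM in FL_HSC and 118 TPM in ESC. Its paralogue Eif1b was higher in FL_HSC than in ESC, with medians of 37.7 and 0 TPM and a difference of 2.31, or 2.86 in the pairs. Eif1a and Eif1ax, whose transcripts are alike, were detected in 38.1% and 28.6% of Eng_ES-HSC, 52.6% and 26.3% of Eng_BM-HSC, 79.3% and 78.2% of FL_HSC, and 97.4% and 75.3% of ESC. Over the 5 eIF1 and eIF1A symbols, the median difference of Eng_BM-HSC minus FL_HSC was -1.76 over all kept cells and 0.47 in the pairs. That of Eng_ES-HSC minus FL_HSC was -2.49 and -1.07. Eif5, the GTPase activator of eIF2, had medians of 0 TPM in Eng_ES-HSC, 16.7 TPM in Eng_BM-HSC, 87.3 TPM in FL_HSC and 75.7 TPM in ESC. Eif6, which keeps the large subunit from joining too early, had medians of 1.42, 0, 1.97 and 20.4 TPM in that order of groups.

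The helicases did not move together. Eif4a1, the main cytoplasmic helicase, had medians of 29.9 TPM in Eng_ES-HSC, 79.7 TPM in Eng_BM-HSC, 141 TPM in FL_HSC and 198 TPM in ESC. In pairs of like gene number the difference from FL_HSC was 2.10 in Eng_ES-HSC and 2.43 in Eng_BM-HSC, against -0.97 and -0.39 over all kept cells. Eif4a1 has pseudogenes that can share its reads. Eif4a2 was detected in 19%, 42.1%, 73.6% and 84.4% of cells in that order. Eif4a3, a helicase of the exon junction complex, had medians of 0 TPM in both engrafted groups, 215 TPM in FL_HSC and 106 TPM in ESC. It was detected in 23.8% of Eng_ES-HSC (8.22% to 47.2%), 21.1% of Eng_BM-HSC (12.5% to 31.9%) and 86.2% of FL_HSC (77.1% to 92.7%), and the difference of Eng_ES-HSC minus FL_HSC was -4.06 in the pairs. Eif5a, a factor that relieves stalled ribosomes, had medians of 0 TPM in both engrafted groups, 115 TPM in FL_HSC and 49.5 TPM in ESC, and the pairs gave -3.83 for Eng_ES-HSC minus FL_HSC, -2.55 for Eng_BM-HSC minus FL_HSC and 1.81 for FL_HSC minus ESC. Its paralogue Eif5a2 was detected in at most 16.9% of any group.

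The cap-binding protein Eif4e had medians of 2.57 TPM in Eng_ES-HSC, 2.47 TPM in Eng_BM-HSC, 199 TPM in FL_HSC and 86.6 TPM in ESC, so the engrafted medians lay together and below the others. In the pairs the difference from FL_HSC was -1.89 in Eng_ES-HSC and 0.27 in Eng_BM-HSC. Eif4e2, a cap-binding homologue linked to repression, was detected in 28.6%, 52.6%, 69% and 94.8% of cells, and Eif4e3 in 14.3%, 21.1%, 21.8% and 5.19%. Of the scaffolds, Eif4g2 had medians of 47.6 TPM in Eng_ES-HSC, 10.4 TPM in Eng_BM-HSC, 112 TPM in FL_HSC and 111 TPM in ESC. Eif4g3 was detected in 0%, 22.4%, 43.7% and 26%. Eif4g1, the general scaffold, never exceeded 36.9 TPM in any cell and was detected in 0 of 21 Eng_ES-HSC, 1 of 76 Eng_BM-HSC, 10 of 87 FL_HSC and 12 of 77 ESC cells. Eif4e1b, known from oocytes, was detected in 2 Eng_BM-HSC and 2 ESC cells and in 0 others.

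Eif4ebp1, a 4E-binding protein (chromosome 8, 27260329 to 27276674), was the initiation symbol that separated ESC most from the engrafted groups. Its lowest, median and highest levels were 0, 0 and 663 TPM in Eng_ES-HSC, 0, 0 and 1243 TPM in Eng_BM-HSC, 0, 86.1 and 624 TPM in FL_HSC, and 2, 486 and 2134 TPM in ESC. It was detected in 28.6% of Eng_ES-HSC, 34.2% of Eng_BM-HSC, 78.2% of FL_HSC and all 77 ESC. The difference from ESC was -6.16 in Eng_ES-HSC, -5.88 in Eng_BM-HSC and -3.19 in FL_HSC, and -2.17 in the FL_HSC and ESC pairs. Eif4ebp2 was detected in 19% of Eng_ES-HSC, 14.5% of Eng_BM-HSC, 29.9% of FL_HSC and 57.1% of ESC, and Eif4ebp3 in 19%, 5.26%, 10.3% and 18.2%.

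Other genes of translation, taken as a list of 42 partners, release factors, modifying enzymes, signalling genes, stress targets and mitochondrial translation factors, were described in the same way. Their median was -0.18 for Eng_ES-HSC minus Eng_BM-HSC, with 6 lower and 1 higher, -1.30 for Eng_ES-HSC minus FL_HSC, with 25 lower and 0 higher, and -0.97 for Eng_BM-HSC minus FL_HSC, with 21 lower and 0 higher. Against ESC the medians were -1.29 in Eng_ES-HSC, with 26 lower, -0.87 in Eng_BM-HSC, with 20 lower, and -0.10 in FL_HSC, with 8 lower and 5 higher. The background shares lower over all kept cells were 9.76%, 39.9% and 33.2% for the comparisons without ESC and 46.7%, 40.6% and 20.1% for those with ESC. The count for FL_HSC minus ESC, 8 of 42, lay nearest to its background share. In the pairs the list median was 0.00 for Eng_ES-HSC minus Eng_BM-HSC (5 lower, 7 higher), -0.02 for Eng_ES-HSC minus FL_HSC (9 lower, 2 higher), 0.00 for Eng_BM-HSC minus FL_HSC (14 lower, 2 higher) and 0.40 for FL_HSC minus ESC (4 lower, 14 higher). In the same order of pairs, 10.7%, 22.1%, 16.4% and 14.7% of background genes were lower. The background shares higher were 8.51%, 9.57%, 8.65% and 26.5%. Pabpc1, which binds the poly(A) tail, had means of 449 TPM in Eng_ES-HSC, 464 TPM in Eng_BM-HSC, 380 TPM in FL_HSC and 537 TPM in ESC. Ppp1r15a, the inducible subunit of the eIF2 alpha phosphatase, was listed at 0 in each of the 21 cells of Eng_ES-HSC and had means of 31.3 TPM in Eng_BM-HSC, 248 TPM in FL_HSC and 35.9 TPM in ESC. It differed by 4.04 for FL_HSC minus ESC, and by 3.74 in the pairs.

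Members near the limit of 1 log2 unit show how the counts depend on it. For Eng_ES-HSC minus Eng_BM-HSC, Eef1e1 at -1.03 was just past it and Eif5a at -0.95 and Eef1d at -0.92 just short of it. For FL_HSC minus ESC, Eif5b at -1.11 was just past it and Eif3j2 at -0.93 just short.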

How the data were processed

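The authors deposited 1 table of natural log values for 316 cells and 22073 rows, of which 21970 are mouse genes, 92 ERCC spike-ins and 11 reporter or selection cassettes. The base and the added constant are not stated in the labels and were taken from the data: their exponential minus 1 sums to 414503 to 962583 in a cell, as TPM with rows left out would. Per the submitters' processing notes, the tools were Salmon 0.3.2 and HISAT 0.1.6 with GRCm38, and no roles are stated. Sources used here do not give the library kit, the cell sort or the annotation.

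Values were turned to TPM and then to log2(TPM + 1). Cells of a group with profiles correlated above 0.9 were averaged, and cells under 1000 genes left out, which kept 261. Doublets were not called. Comparisons used Python 3.11.15, numpy 2.4.6, pandas 2.3.3 and scipy 1.17.1, with exact Clopper-Pearson intervals of 95%. Gene positions are from GENCODE M21 and promoters from RefSeq. Fully described genes were the 4 largest differences per comparison with at least 10 TPM and 50% detection in the higher group, the highest member of each family, and paralogue sets. The members and lists were chosen with earlier results of these data known. The difference of means was checked by planting changes in cells of Eng_BM-HSC and of FL_HSC, each group split at random. Only well-detected genes were changed and only the direction was checked. Low genes and changes near 1 log2 unit were not covered.

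Alternatives were pseudocounts of 0.1 and 10, log2 of mean TPM, trimmed means, other cell filters and gene number windows, a filter on members, separate near-identical cells, rescaling, quantile normalization and odd or even cells. Alternative selections of cells were added after seeing the data: pairs within 200 genes, the same pairs without cells over 50% mitochondrial, and Eng_ES-HSC without cells over 1000 TPM of granulocyte markers.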

Additional observations from a re-analysis of the deposited data

How the results depend on the processing

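No paired analysis was possible because the replicate numbers only count cells and no test was run. Of the median differences under an alternative, 200 moved by less than the SD of the per-cell median over cells, 8 of at least 1 unit changed sign and 2 moved by more. That SD is the spread of single cells, so a move below it can still be large. Initiation factors of Eng_BM-HSC minus FL_HSC gave 0.06 in cells with 1000 to 3000 genes. Those of Eng_BM-HSC minus ESC gave 0.40 there and 0.22 in pairs within 200 genes of any mitochondrial share, and those of Eng_ES-HSC minus ESC gave 0.20 in such pairs. Elongation factors of Eng_BM-HSC minus ESC gave 0.02 with log2 of the mean TPM, 0.71 in cells with 1000 to 3000 genes, 0.57 with 3000 to 6000 genes and 0.89 in the pairs. The ESC cells with 1000 to 3000 genes had a median of 90.4% mitochondrial transcripts, and the FL_HSC cells 71%. Initiation factors of Eng_ES-HSC minus ESC moved to -0.11 in cells with 1000 to 3000 genes and to -0.58 with the nearest cell on gene number. The 200 below the SD held large moves too. Elongation factors of Eng_ES-HSC minus ESC went from -2.67 to as far as 0.00. Initiation factors of Eng_ES-HSC minus FL_HSC went from -2.49 to as far as -0.35. Medians under 1 unit also changed sign in some settings: their ranges were -0.70 to 0.07 for initiation factors of Eng_ES-HSC minus Eng_BM-HSC, -1.46 to 0.59 for elongation factors of Eng_BM-HSC minus FL_HSC, and, for FL_HSC minus ESC, -0.80 to 0.53 and -0.24 to 0.51.

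Rescaling without mitochondrial, ribosomal, globin, ERCC and cassette rows moved the initiation sums to 6674 TPM in Eng_ES-HSC, 11307 TPM in Eng_BM-HSC, 12727 TPM in FL_HSC and 16162 TPM in ESC, and the elongation sums to 5256 TPM in Eng_ES-HSC, 8597 TPM in Eng_BM-HSC, 14308 TPM in FL_HSC and 8584 TPM in ESC. In cells with 1000 to 3000 genes the initiation sums were 1947 TPM in FL_HSC and 548 TPM in ESC, and the elongation sums 1764 TPM and 308 TPM. Median shares of cells with a member were 22.4% in Eng_BM-HSC, 59.2% in FL_HSC and 67.5% in ESC at 10 TPM, and 72.1% in ESC at 5 TPM. Scaling to ERCC spike-ins was not run, since their sum was 0 in 1 cell of Eng_ES-HSC, 30 of Eng_BM-HSC, 2 of FL_HSC and 13 of ESC. The median of all genes for Eng_ES-HSC minus FL_HSC was -0.70 as reported, -0.37 after quantile normalization and -0.85 after rescaling. Counts past 1 unit depended on the setting: of 55 initiation factors 3 to 24 were lower for Eng_ES-HSC minus Eng_BM-HSC (11 as reported), 14 to 47 for Eng_ES-HSC minus FL_HSC (43), 6 to 45 for Eng_BM-HSC minus FL_HSC (42), 7 to 50 for Eng_ES-HSC minus ESC (45), 6 to 47 for Eng_BM-HSC minus ESC (42) and 3 to 20 for FL_HSC minus ESC (11). Of 9 elongation factors 2 to 7 were lower for Eng_ES-HSC minus Eng_BM-HSC (5), 2 to 7 for Eng_ES-HSC minus FL_HSC (6), 1 to 6 for Eng_BM-HSC minus FL_HSC (4), 2 to 7 for Eng_ES-HSC minus ESC (6), 0 to 6 for Eng_BM-HSC minus ESC (6) and 0 to 3 for FL_HSC minus ESC (2). In pairs of any mitochondrial share, 3 initiation factors were lower for Eng_ES-HSC minus Eng_BM-HSC and 14 for Eng_ES-HSC minus FL_HSC, against 10 and 27 in pairs of at most 50%. Background shares of most alternative settings are not given, and the cause of these shifts was not tested.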
